A study of Saccharomyces cerevisiae with 20 samples.

Results

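The genes described here encode chaperones and heat-shock proteins of Saccharomyces cerevisiae, grouped by the compartment and complex in which they work. There were 44 of them, picked by name from the annotation of the array, and they were measured by 42 probe sets (sets of short probes for a transcript) among 9335 features on the array. A probe set of its own measured 40 genes. SSB1 and SSB2 shared a probe set, as did HSP32 and HSP33, whose probe set also matched SNO4. All 42 passed the filter on dim signals and were among the 6067 probe sets tested.

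The data came from 20 arrays of batch cultures of CEN.PK113-7D (MATa MAL2-8C SUC2), a haploid laboratory strain, grown at 30°C on 20 g/L glucose. Independent duplicate cultures were sampled at 6 points with air and at 4 points under nitrogen, so that each of the 10 groups held 2 cultures. Aerobic samples were from exponential phase (exp), late exponential phase, the diauxic shift (the halt when glucose is used up), the post-diauxic phase (respiratory growth on fermentation products), early stationary phase (early SP) and late SP. Anaerobic samples were from exponential phase, end exponential phase, early SP and late SP, with no post-diauxic phase. Only the anaerobic medium was supplemented, in ethanol, with 420 mg/L of Tween 80 and 10 mg/L of ergosterol, so that oxygen and these supplements cannot be told apart. The labels give no hours, and the interval between early and late SP need not be the same in aerobic and anaerobic cultures.

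Chaperones bind unfolded or partly folded proteins. Hsp70 proteins work in cycles of ATP hydrolysis that J-proteins start and nucleotide exchange factors end, and they pass some clients on to Hsp90, whose own cycle is steered by co-chaperones. Small Hsps hold misfolded proteins in loose aggregates and the disaggregase Hsp104 takes these apart together with Hsp70. Mitochondria and the endoplasmic reticulum (ER) have Hsp70 systems of their own. In yeast, many cytosolic members are under the control of the heat-shock factor Hsf1 and of the stress factors Msn2 and Msn4, and several are known for raised transcript levels in starved cells.

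Values are the deposited linear signals, for culture 1 and then culture 2. Fold changes are log2 differences from a limma fit of all 20 arrays. To be called, a change had to reach a fold of 2 or more with a p below 0.05 after Benjamini-Hochberg adjustment. Signals show the share of a transcript in the RNA on an array, so that a change in total mRNA per cell is not seen. The mating-type genes were those of the labelled strain, apart from 1: the a-specific genes STE2 and MFA1 had signals of 82 to 780.6 and 351 to 2703, while the alpha-specific genes STE3 and MF(ALPHA)2 stayed at 8.80 to 29.7 and 5.90 to 18.4 and MF(ALPHA)1 reached 239. AUS1, a sterol importer of cells without oxygen, had signals of 34.2 to 99.6 with air and of 1261 to 1829 without.

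The cultures of the aerobic exponential samples stood apart from each other in part of these genes, in opposite directions at successive points. In exponential phase 28 of 42 probe sets were higher in culture 1, and in late exponential phase 25 were higher in culture 2, with 20 doing both. HSP26 had signals of 193 and 41.1 in exponential phase and of 91.6 and 188 in late exponential phase, and HSP104 of 319 and 118 and of 192 and 378. Over all tested probe sets, the differences between the cultures at these points had a correlation of -0.555 across probe sets, which are not independent replicates. Comparisons that rest on either group are given without 1 of its arrays where that changed a call.

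The members had a wider range over the growth curve than the median gene on the array. The highest of the 10 group means was a median of 7.88-fold above the lowest for the 42 probe sets, and 3.71-fold for all tested probe sets. By class the median was 75.9-fold for the small Hsps, 29.4-fold for the sequestrases BTN2 and CUR1, 13.5-fold for cytosolic Hsp70 and Hsp110, 5.38-fold for Hsp90 co-chaperones, 4.41-fold for the ER and 2.94-fold for mitochondria. Within a group, the cultures differed by a median of 0.19 on the log2 scale over these probe sets. Aerobic late SP held the highest mean of 23 of the 42, among them 4 of the 8 probe sets of Hsp70 and Hsp110, both of Hsp90 and both of the small Hsps. All 4 ER members had their highest mean in anaerobic end exponential phase. The group with the highest mean was not counted for all tested probe sets, so these counts have no share to be set against.

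**Figure D1:**
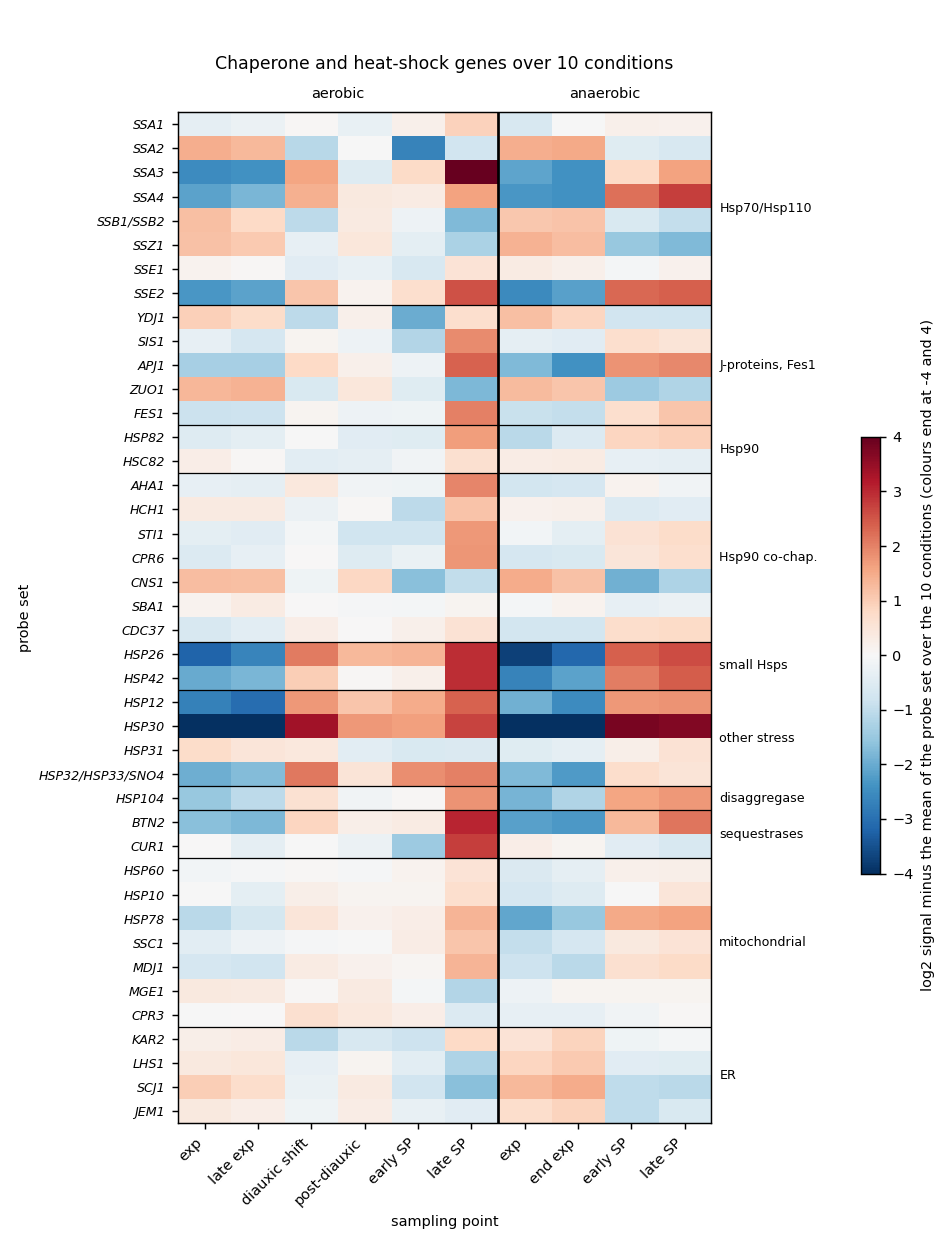
Mean log2 signal of each of the 42 probe sets (rows, by class) in 10 conditions (columns, aerobic to the left of the line, anaerobic to the right), minus the mean of the probe set over the conditions. Red cells are above and blue cells below that mean. The aerobic late SP column holds the highest mean of 23 probe sets, a count not made for all tested probe sets.

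While glucose lasted, few chaperone transcripts were called different with oxygen. In exponential phase 1 member of 42 was called higher in aerobic cultures and none lower, where 7.96% of all tested probe sets were called, 5.08% higher and 2.88% lower. This was HSP31, an enzyme of the DJ-1 family that removes methylglyoxal, with 1699.8 and 1632 in aerobic and 797 and 631 in anaerobic cultures (log2 fold change 1.23, SE 0.20, adjusted p = 0.00059). Signals did not overlap for 15 members with the higher and 9 with the lower aerobic value here, a count not made for all tested probe sets. HSP31 was among the 15. Its call ended with only the arrays compared (adjusted p = 0.12), and 5 members were called without culture 2 of the aerobic exponential samples. The mitochondrial members all lay above 0 here, from 0.15 for MDJ1 to 1.02 for HSP78, and the ER members all below 0, from -0.49 to -0.28, but none of the 11 was called.

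At the end of glucose growth, aerobic late exponential over anaerobic end exponential cultures gave 1 called member, with 9.05% of all probe sets called, 6.05% higher and 3% lower. APJ1, a J-protein, had signals of 33.7 and 43.5 in aerobic and 10.3 and 26.8 in anaerobic cultures (log2 fold change 1.09, SE 0.29, adjusted p = 0.02). The lower anaerobic signal lay under the floor of 12, and the log2 fold change was 0.51 (adjusted p = 0.31) without that array. It was 0.91 (adjusted p = 0.16) without culture 2 of the aerobic samples. Without culture 1 of the aerobic samples, 2 members were called. Between exponential and late or end exponential phase, limma called 0 members in aerobic cultures and 0 in anaerobic cultures, with 0% and 0.478% of all probe sets called, the second made up of 0.412% higher and 0.0659% lower. At an unadjusted p below 0.05 these counts were 0 and 7, which were not made for all tested probe sets. Without culture 1 of the aerobic exponential samples, 1 member was called in the aerobic comparison.

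Exhaustion of glucose moved the members far more. In aerobic cultures 13 were higher and 7 lower at the diauxic shift than in late exponential phase (32.1% of all probe sets called, 19.4% higher and 12.7% lower). In anaerobic cultures 19 were higher and 10 lower in early SP than in end exponential phase (47.7% of all called, 23.9% higher and 23.8% lower). These comparisons share no sample. The 13 that rose with air were 100% of that list and 68.4% of the 19 that rose without. The 7 that fell with air were 70% of the 10 that fell without. The overlap over all tested probe sets was not counted, so it is open whether this is particular to the members. SIS1, FES1, HSP82, CPR6, CDC37 and SSC1 were called higher in anaerobic cultures alone, and LHS1, SCJ1 and JEM1 lower, but a difference between the regimes at this step was not tested. The anaerobic rise of SIS1 was 1.12, or 0.97 without culture 1 of end exponential phase. That of SSC1 was 1.07, or 0.70 by quantile normalization. With air, SIS1 had 0.80, CDC37 0.70 and FES1 0.94, all under the fold of 2. Without culture 1 of late exponential phase, SIS1 had 1.11 and CDC37 1.02. Without culture 2 of that phase, FES1 had 1.02 and SCJ1 -1.25. By quantile normalization FES1 was called higher with air too (1.17, adjusted p = 0.00014).

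The largest rise at this step in either regime was that of HSP30. HSP30 (YCR021C), a plasma membrane protein that restrains the proton pump Pma1, had signals of 50.5 and 24.5 in exponential phase, 31.4 and 58.9 in late exponential phase, 7729.8 and 6372 at the diauxic shift, 2615 and 1984 in the post-diauxic phase, 2470.5 and 1841 in early SP and 5394 and 3789 in late SP in aerobic cultures. Anaerobic cultures gave 32.1 and 30.8 in exponential phase, 34.8 and 41.2 in end exponential phase, 8538 and 10629 in early SP and 8606 and 9216 in late SP. Its group means spanned 303-fold. The rise was 7.35 (SE 0.33, adjusted p = 1.3e-10) at the diauxic shift and 7.97 (SE 0.33, adjusted p = 6.1e-11) at anaerobic early SP. HSP12, a small protein that settles on membranes under stress, rose by 4.77 at the diauxic shift and by 4.24 in anaerobic early SP.

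Among the small Hsps, HSP26 had signals of 3448 and 3502 at the diauxic shift against 91.6 and 188 in late exponential phase (log2 fold change 4.73, SE 0.48, adjusted p = 1.4e-06). In anaerobic cultures it had 4046 and 4592 in early SP against 98.7 and 87.8 in end exponential phase (log2 fold change 5.53, SE 0.48, adjusted p = 1.5e-07). HSP42, the small Hsp that sorts misfolded proteins to cytosolic deposits, rose by 2.81 and 4.20 at the same steps. HSP104 rose by 1.65 (adjusted p = 0.0015, 0.055 with only the arrays compared) with air and by 2.78 (adjusted p = 8.4e-06) without. The shared probe set of HSP32, HSP33 and SNO4, relatives of HSP31, rose by 3.83 with air and by 2.97 without. HSP31 itself had log2 fold changes of -0.05 and 0.59 and was not called.

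Among cytosolic Hsp70 genes, the stress-inducible and the growth-associated members moved in opposite directions. SSA3 rose by 3.98 at the diauxic shift and by 3.20 in anaerobic early SP. SSA4 rose by 3.26 and 4.62, and SSE2, an Hsp110 exchange factor, by 3.25 and 4.45. By its own probe set, SSA2 fell by 2.41 at the diauxic shift and by 1.99 in anaerobic early SP on the log2 scale. The Hsp70 pair of the ribosome, SSB1/SSB2, fell by 1.85 and 1.76, and SSZ1, the Hsp70 of the ribosome-associated complex, by 1.38 and 2.74. ZUO1, the J-protein partner of Ssz1, fell by 2.00 and 2.57. SSA1 and SSE1 were not called in either comparison.

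By its own probe set, SSA2 had the most uneven course of the constitutive members. Its aerobic signals were 10774 and 13167 in exponential phase, 9334 and 11813 in late exponential phase, 1946 and 2008 at the diauxic shift, 4417 and 4038 in the post-diauxic phase, 608 and 745 in early SP and 2275 and 2805 in late SP. Its anaerobic signals were 12385 and 11466 in exponential phase, 12253 and 12201 in end exponential phase, 3192 and 2979 in early SP and 3004 and 2571 in late SP. The aerobic profile dropped at the diauxic shift, recovered in part in the post-diauxic phase (log2 fold change 1.10, SE 0.18, adjusted p = 0.00074), dropped again in early SP (log2 fold change -2.65, SE 0.18, adjusted p = 4.9e-08) and came back in late SP (log2 fold change 1.91, SE 0.18, adjusted p = 2e-06). The anaerobic profile had a single drop. Early SP signals were lower in aerobic cultures without overlap (log2 fold change -2.20, SE 0.18, adjusted p = 1.3e-07). The late SP difference of -0.14 was not called. The falls were not seen in a pair of probe sets that match both SSA1 and SSA2. These gave 0.02 and -0.44 at the diauxic shift and 0.58 and -0.02 in aerobic early SP over the post-diauxic phase. In anaerobic early SP over end exponential phase they gave -0.04 and 0.23. None of these changes was called.

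In the post-diauxic phase several of these changes were partly undone. Relative to the diauxic shift 5 members were higher and 4 lower (11% of all probe sets called, 7.42% higher and 3.54% lower). The higher ones were YDJ1 1.24, SSB1/SSB2 1.39, SSA2 1.10, ZUO1 1.08 and CNS1 1.00 (log2 fold changes), all of which had fallen at the shift. The lower ones were SSA3 -2.08, HSP30 -1.62, HSP32/HSP33/SNO4 -1.60 and SSA4 -1.03, all of which had risen. The call of SSA4 ended without any 1 of the 4 arrays compared (log2 fold change -0.93 to -1.13, adjusted p = 0.063 to 0.17). Without culture 1 of the diauxic shift, SSB1/SSB2 had 1.02 (adjusted p = 0.056) and ZUO1 0.89 (adjusted p = 0.061). CNS1 had 0.96 without culture 2 of the diauxic shift and 0.98 without culture 2 of the post-diauxic samples. Under quantile normalization the split was 4 higher and 5 lower.

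On entry into aerobic SP, 2 members were higher than in the post-diauxic phase and 6 lower (18.3% of all probe sets called, 6.81% higher and 11.5% lower). SSA2 and YDJ1 fell by 2.65 and 2.19 on the log2 scale, CNS1, an essential co-chaperone of Hsp90, by 2.5, CUR1 by 1.19, SCJ1 by 1.11 and HCH1 by 1.10. HCH1 fell by 0.94, under the fold of 2, without culture 1 of early SP. The HSP32/HSP33/SNO4 probe set rose by 1.36 and SSA3 by 1.29. For SSA3, the signals of 452 and 205 in early SP stood against 164 and 94.0 in the post-diauxic phase, and the call ended without culture 1 of early SP (0.72, adjusted p = 0.28), without culture 2 of the post-diauxic samples (0.89, adjusted p = 0.22) and under a floor of 30 (adjusted p = 0.053), no filter (adjusted p = 0.056) and only the arrays compared (adjusted p = 0.17).

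In early SP, most of the called members had lower transcript levels in aerobic than in anaerobic cultures. Of 42 members 2 were higher and 12 lower (25.1% of all tested probe sets called, 16.1% higher and 9.02% lower). The median log2 fold change was -0.53 for the members and 0.21 for all tested probe sets. The lower members were spread over most cytosolic classes, with 3 of 8 Hsp70 and Hsp110 probe sets and 3 of 5 J-proteins and exchange factor. Also lower were 1 of 2 Hsp90, 1 of 7 co-chaperones, 1 of 2 small Hsps and HSP104. Of the 4 probe sets of other stress proteins, HSP30 alone was lower. In mitochondria 1 of 7 was called and in the ER 0 of 4. Neither sequestrase was called, but BTN2 (-1.09) and CUR1 (-1.11) were by scaling to housekeeping genes. The split was 1 higher and 14 lower by quantile normalization and 1 and 15 by scaling to housekeeping genes.

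SIS1, the essential J-protein that directs Hsp70 to misfolded proteins, had signals of 511 and 601 in aerobic and 1935 and 2082 in anaerobic early SP (log2 fold change -1.86, SE 0.21, adjusted p = 4.4e-06). APJ1 had 84.4 and 82.3 against 309 and 365 (log2 fold change -2.01, SE 0.29, adjusted p = 6.1e-05), and SSA4 had 416 and 366 against 1388 and 1486 (log2 fold change -1.88, SE 0.31, adjusted p = 0.00016). None of these signals overlapped between the regimes. HSP82, the heat-inducible Hsp90 gene, had 1519.6 and 1079.9 in aerobic and 3046 and 3456 in anaerobic cultures (log2 fold change -1.34, SE 0.24, adjusted p = 0.00037). HSC82, its constitutive twin, had 4369 and 4634 in aerobic and 3659 and 4239 in anaerobic cultures and was not called (log2 fold change 0.19, SE 0.15, adjusted p = 0.33). The other members called lower were HSP30 -2.16, HSP42 -1.86, SSE2 -1.61, HSP104 -1.54, STI1 -1.38, HSP78 -1.26 and YDJ1 -1.23 in log2 fold change. HSP78 had -1.13 (adjusted p = 0.051) without culture 2 of aerobic early SP.

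SSZ1 and the HSP32/HSP33/SNO4 probe set were higher in aerobic early SP, by 1.11 and 1.18. SSZ1 was under the fold of 2 by quantile normalization (0.92) and by scaling to housekeeping genes (0.99), and the HSP32/HSP33/SNO4 probe set by quantile normalization (0.95). When the first sample after glucose exhaustion was taken from each regime instead, the aerobic diauxic shift over anaerobic early SP, 3 members were higher and 2 lower (22.4% of all probe sets called, 15.9% higher and 6.56% lower). These were CNS1 (1.74), the HSP32/HSP33/SNO4 probe set (1.42) and SSZ1 (1.16), and, lower, SSE2 (-1.18) and HSP78 (-1.02). The call of HSP78 ended without any 1 of the 4 arrays (-0.90 to -1.13, adjusted p = 0.057 to 0.13) and that of SSE2 without culture 2 of the diauxic shift (-0.99, adjusted p = 0.070). CNS1, with signals of 46.5 and 43.9 in aerobic and 14.4 and 12.7 in anaerobic cultures, lies near the floor in the anaerobic samples and had 0.59 with a floor of 30. SSZ1 had 0.94 by quantile normalization. The split was 2 higher and 5 lower by quantile normalization and 3 and 3 by scaling to housekeeping genes.

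**Figure D2:**
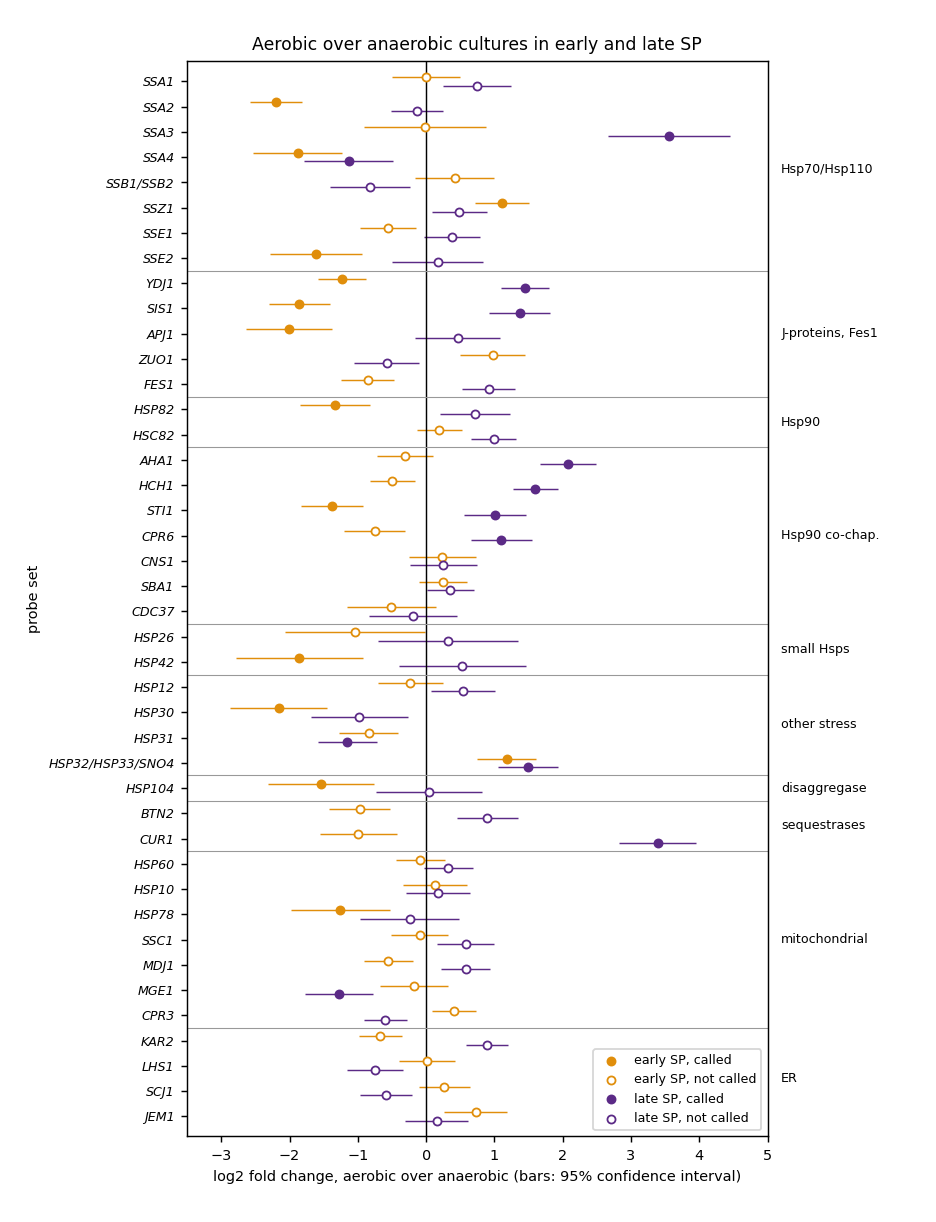
Log2 fold change of aerobic over anaerobic cultures for the 42 probe sets (rows, by class) in early SP (orange) and late SP (purple), with 95% confidence intervals and filled points for called differences. YDJ1, SIS1 and STI1 were called on the lower side in early SP and on the higher side in late SP, and SSA3 and CUR1 lay farthest to the right in late SP.

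Between early and late SP the aerobic cultures raised a broad set of chaperone transcripts. Of 42 members 23 were higher and 3 lower in late than in early SP, where 24.4% of all tested probe sets were called, 8.01% higher and 16.4% lower. The members had a median log2 fold change of 1.14, and all tested probe sets of -0.22. In anaerobic cultures limma called 0 members between early and late SP, with 0.412% of all probe sets called, 0.0165% higher and 0.396% lower. An unadjusted p below 0.05 was found for 4 members there, a count not made for all tested probe sets. The members' median was 0.09 there, against -0.11 for all probe sets.

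The aerobic rises reached every cytosolic class. They took in 5 of 8 Hsp70 and Hsp110 probe sets, 4 of 5 J-proteins and exchange factor, HSP82 and 4 of 7 co-chaperones. Both small Hsps, HSP104 and both sequestrases rose too. Of the 4 probe sets of other stress proteins, HSP30 alone was called higher. Outside the cytosol, 2 of 7 mitochondrial members (HSP78 and MDJ1) and 1 of 4 ER members (KAR2) rose. SSB1/SSB2, ZUO1 and MGE1 fell. HSP26 was not called without culture 1 of early SP (1.51, adjusted p = 0.070), culture 1 of late SP (1.52, adjusted p = 0.090) or culture 2 of late SP (1.64, adjusted p = 0.061). HSP30 had 0.83 (adjusted p = 0.15) and HSP78 0.84 (adjusted p = 0.15) without culture 1 of late SP, and without culture 2 of early SP HSP30 had 0.87 (adjusted p = 0.11), HSP78 0.97 (adjusted p = 0.088) and SSE1 0.97. HSP30 had 0.87 by quantile normalization and an adjusted p of 0.052 with only the arrays compared.

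The difference between the regimes in this step was tested after its values had been seen. It was called for 18 members with the higher value in aerobic cultures and for 4 with the lower, where 19.3% of all tested probe sets were called, 8.08% and 11.2% by direction. CUR1 led with 4.38, followed by SSA3 3.57, SIS1 3.22 and YDJ1 2.68. Counts were 17 without culture 1 of aerobic late SP and 22 without culture 1 of aerobic early SP. On the arrays of aerobic late SP, the 3' over 5' signal ratio of ACT1, a sign of RNA breakdown or short labelled product, was 2.68 and 2.10, against 1.64 and 1.62 in anaerobic late SP and 1.20 to 2.03 on the other aerobic arrays. The ratio of SPT15 was 5.2 and 6.81 against 4.35 and 4.68 in anaerobic late SP, and that of SRB4 was 2.85 and 3.70 against 3.40 and 3.67. Higher ratios of these genes were found on other aerobic arrays. SPT15 had 7.74 in culture 2 of late exponential phase, and SRB4 had 8.16 and 11.2 in the post-diauxic phase. The part of RNA quality in these results was not tested.

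In late SP, 9 members were higher in aerobic than in anaerobic cultures and 3 lower (31.1% of all tested probe sets called, 18.2% higher and 12.8% lower), a share of 28.6% of the members. The higher ones were SSA3, CUR1, 4 co-chaperones of Hsp90, the J-proteins YDJ1 and SIS1, and the HSP32/HSP33/SNO4 probe set. SSA4, HSP31 and MGE1 were lower. The split was 7 higher and 5 lower by quantile normalization and 7 and 4 by scaling to housekeeping genes. The median of all probe sets in this comparison was 0.08, or -0.12 by quantile normalization.

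SSA3 (YBL075C), an inducible Hsp70 gene, had the largest difference. Its aerobic signals were 33.1 and 29.5 in exponential phase, 34.0 and 32.8 in late exponential phase, 539.6 and 513 at the diauxic shift, 164 and 94.0 in the post-diauxic phase, 452 and 205 in early SP and 6253 and 6639.8 in late SP, and its anaerobic signals 41.6 and 40.9 in exponential phase, 38.1 and 29.3 in end exponential phase, 176 and 537 in early SP and 552 and 542 in late SP. The aerobic late SP cultures lay above all 18 other samples. The aerobic rise between early and late SP was 4.40 (SE 0.42, adjusted p = 2.5e-06), and the late SP difference was 3.56 (SE 0.42, adjusted p = 6.3e-06). In early SP the regimes were -0.02 apart, with a 95% confidence interval of -0.91 to 0.88. The cultures of both regimes lay more than 2-fold apart there.

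SSA4 (YER103W), the other inducible Hsp70 gene, was lower in aerobic SP. In aerobic cultures its signals were 103 and 49.4 in exponential phase, 64.8 and 116 in late exponential phase, 892 and 777 at the diauxic shift, 418 and 399 in the post-diauxic phase, 416 and 366 in early SP and 903 and 1017 in late SP. In anaerobic cultures they were 65.7 and 58.5 in exponential phase, 70.4 and 48.2 in end exponential phase, 1388 and 1486 in early SP and 2169 and 2047 in late SP. Anaerobic signals were higher in both SP samples, without overlap (log2 fold change -1.14, SE 0.31, adjusted p = 0.0058 in late SP). The late SP call ended without culture 1 of aerobic late SP (-1.05, adjusted p = 0.052). SSE2 was lower in aerobic early SP but had 3004 and 2698 in aerobic and 2503 and 2564 in anaerobic late SP, which was not called (log2 fold change 0.17, SE 0.31, adjusted p = 0.69).

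SSA1 (YAL005C), a constitutive gene, was called in none of the comparisons between regimes. Its signals were 17668 and 15744 in aerobic and 10433 and 9519 in anaerobic late SP, a difference below the fold of 2 (log2 fold change 0.74, SE 0.23, adjusted p = 0.014). The pair of probe sets that match both SSA1 and SSA2 disagreed with each other. In early SP they gave aerobic over anaerobic log2 fold changes of 0.22 and -0.98, and for aerobic late over early SP they gave 0.54, which was not called, and 1.59, which was. The split between these near-identical genes is uncertain to that extent.

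**Figure D3:**
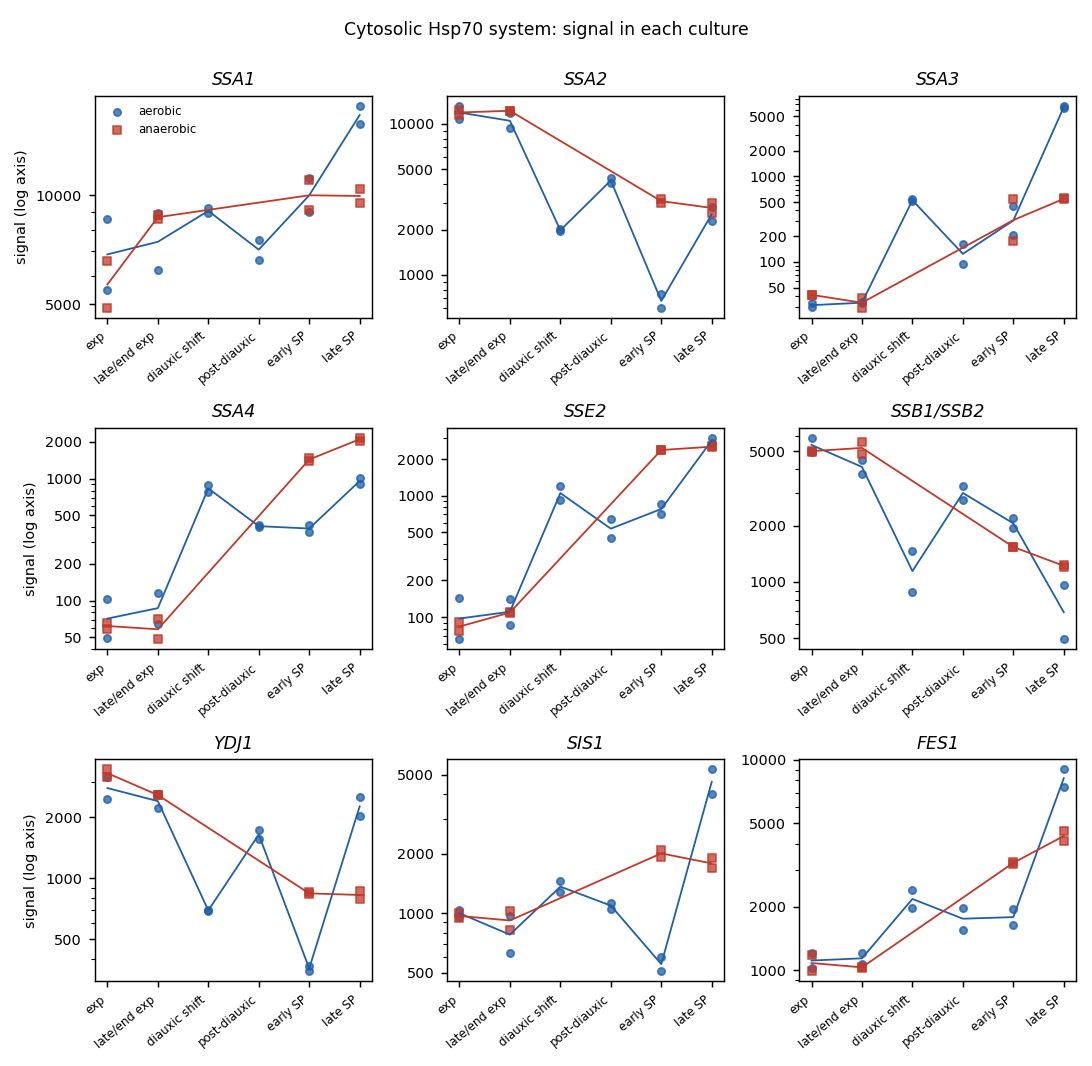
Signal in each culture (points, log axis, a different range in each panel) and group mean of log2 signals (lines) for 9 probe sets of the cytosolic Hsp70 system, with aerobic cultures as blue circles and anaerobic cultures as red squares over the sampling points. SSA3 reached 6253 and 6640 in aerobic late SP, and SSA4 was highest in anaerobic late SP.

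Among the partners of Hsp70, SIS1 and YDJ1 changed side between early and late SP. SIS1 (YNL007C) had 1040.4 and 964 in exponential phase, 966 and 631 in late exponential phase, 1455 and 1278 at the diauxic shift, 1133 and 1057 in the post-diauxic phase, 511 and 601 in early SP and 5321 and 3992 in late SP in aerobic cultures. In anaerobic cultures it had 942 and 999 in exponential phase, 829 and 1022 in end exponential phase, 1935 and 2082 in early SP and 1685 and 1892 in late SP. Aerobic signals were the lowest of the course in early SP and the highest in late SP (log2 fold change 3.06, SE 0.21, adjusted p = 1.1e-07). The late SP difference between regimes was 1.37 (SE 0.21, adjusted p = 6.7e-05). YDJ1, the main farnesylated J-protein of the cytosol, had 371 and 349 in aerobic and 854 and 833 in anaerobic early SP, and 2040.5 and 2518 in aerobic and 790.0 and 868 in anaerobic late SP (log2 fold change 1.45, SE 0.17, adjusted p = 4.5e-06 in late SP). The exchange factor gene FES1 had 9016 and 7455 in aerobic and 4609.7 and 4104 in anaerobic late SP, without overlap but below the fold of 2 (log2 fold change 0.91, SE 0.18, adjusted p = 0.00075). ZUO1 had -0.58 and SSB1/SSB2 -0.82 in late SP, neither of them called.

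HSP82 and 4 of 7 co-chaperones of Hsp90 rose between early and late SP in aerobic cultures. HSP82 (YPL240C) had signals of 1503 and 1038 in exponential phase, 1227 and 1538 in late exponential phase, 2085 and 1542 at the diauxic shift, 1528 and 1129 in the post-diauxic phase, 1519.6 and 1079.9 in early SP and 6231 and 5141 in late SP in aerobic cultures and of 775 and 947 in exponential phase, 1282 and 1202 in end exponential phase, 3046 and 3456 in early SP and 3625 and 3272 in late SP in anaerobic cultures. Its aerobic late SP signals lay above all others (log2 fold change 2.14, SE 0.24, adjusted p = 9.9e-06 over early SP). The late SP difference between regimes was 0.72 (adjusted p = 0.021) and stayed under the fold of 2. HSC82 had 8205 and 7195 in aerobic and 3908 and 3844 in anaerobic late SP, just under the fold of 2 (log2 fold change 0.99, SE 0.15, adjusted p = 8.5e-05). A probe set that matched both genes gave 0.79 in late SP and 1.65 between early and late aerobic SP.

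Among co-chaperones, AHA1, the activator of the Hsp90 ATPase, and HCH1 differed most in late SP. AHA1 (YDR214W) had 1027 and 877 in exponential phase, 819 and 1075 in late exponential phase, 1778 and 1459 at the diauxic shift, 1146 and 1005 in the post-diauxic phase, 1198 and 955 in early SP and 5182 and 4091 in late SP in aerobic cultures. It had 749.9 and 679 in exponential phase, 777 and 739.5 in end exponential phase, 1259.9 and 1401 in early SP and 1122 and 1063 in late SP in anaerobic cultures. The late SP signals of aerobic cultures stood apart from every other sample (log2 fold change 2.08, SE 0.19, adjusted p = 4.7e-07 over anaerobic late SP). HCH1, its shorter homologue, had 1106 and 1022 in aerobic and 337 and 366 in anaerobic late SP (log2 fold change 1.60, SE 0.16, adjusted p = 8.8e-07). CPR6, a cyclophilin that docks on Hsp90, had 5259.5 and 4182 in aerobic and 2206 and 2171 in anaerobic late SP (log2 fold change 1.10, SE 0.21, adjusted p = 0.00048), and STI1, which links Hsp70 to Hsp90, had 8101 and 6279 in aerobic and 3391 and 3697 in anaerobic late SP (log2 fold change 1.01, SE 0.21, adjusted p = 0.001). Neither pair overlapped, but both differences lie close to the fold of 2. Without culture 1 of aerobic late SP they were 0.93 for CPR6 and 0.83 for STI1, and without culture 1 of anaerobic late SP STI1 had 0.95. By quantile normalization they were 0.98 and 0.67, and by scaling to housekeeping genes 0.99 and 0.90.

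The remaining co-chaperones took other courses. CNS1 had signals of 114 and 126 in aerobic and 119 and 172 in anaerobic exponential phase, and of 25.7 and 26.0 in aerobic and 19.2 and 24.6 in anaerobic late SP, and fell over the course by 2.22 with air and 2.72 without on the log2 scale. CDC37, which brings protein kinases to Hsp90, rose by 1.24 with air and 1.53 without over the same interval. The aerobic rise of CDC37 was 0.88 without culture 2 of the aerobic exponential samples. SBA1, the p23 protein, was called in none of the comparisons and spanned 1.59-fold over the group means.

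**Figure D4:**
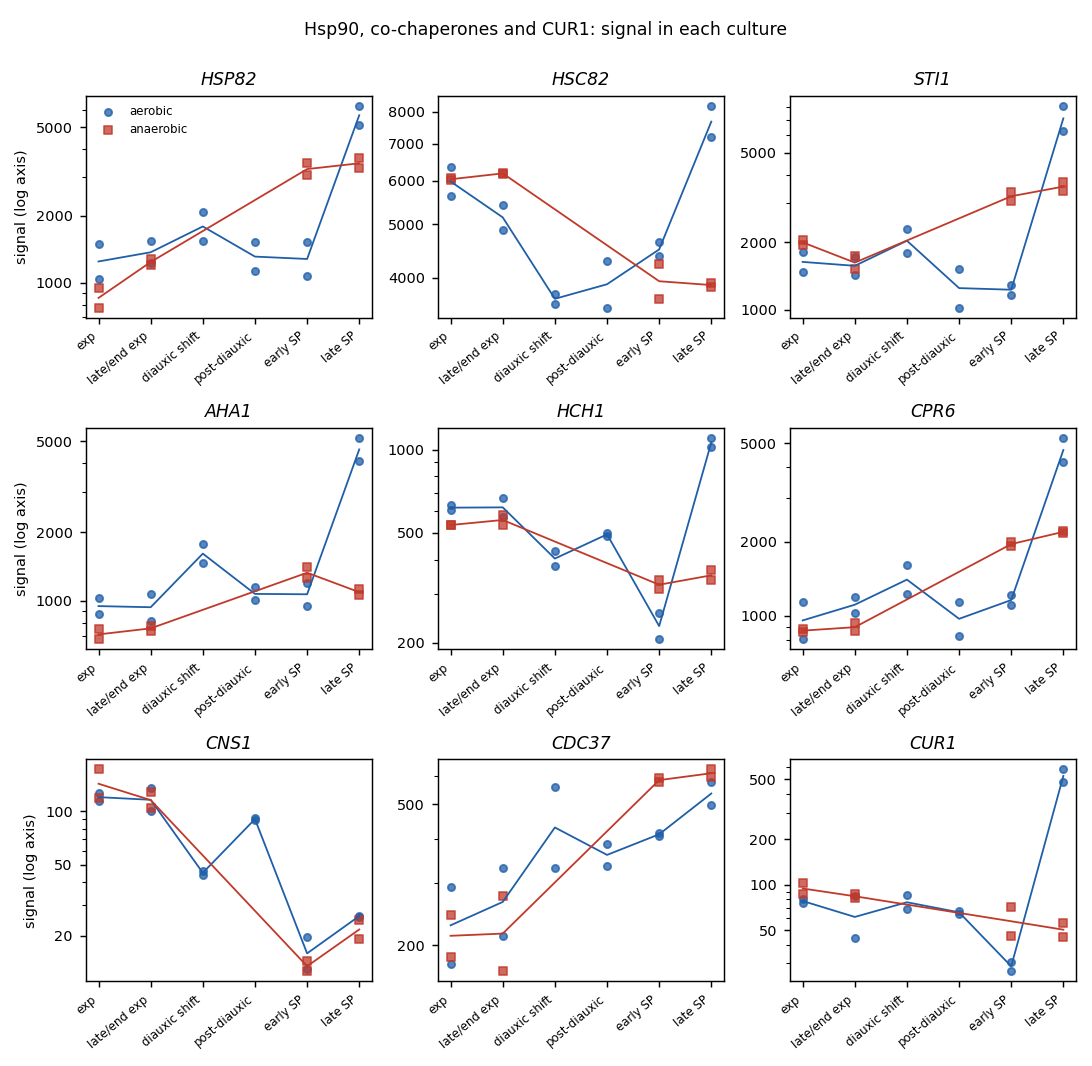
Signal in each culture (points, log axis, a different range in each panel) and group mean of log2 signals (lines) for the Hsp90 genes, 6 co-chaperones and CUR1, with aerobic cultures as blue circles and anaerobic cultures as red squares over the sampling points. In aerobic late SP, the signals of AHA1, HCH1, CPR6, STI1 and CUR1 lie above those of every other sample.

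The sequestrases differed from each other. CUR1 (YPR158W), which takes part in sorting misfolded proteins to the nucleus, had 80.1 and 75.8 in exponential phase, 83.6 and 44.6 in late exponential phase, 85.3 and 68.5 at the diauxic shift, 64.2 and 66.9 in the post-diauxic phase, 30.9 and 26.7 in early SP and 581 and 478 in late SP in aerobic cultures. It had 86.9 and 102 in exponential phase, 86.2 and 81.4 in end exponential phase, 71.2 and 45.9 in early SP and 45.1 and 56.0 in late SP in anaerobic cultures. Aerobic signals were lowest in early SP and highest in late SP, and rose between these points by 4.20 (SE 0.27, adjusted p = 5e-08). The late SP difference was 3.39 (SE 0.27, adjusted p = 8.8e-08). BTN2 rose at glucose exhaustion in both regimes, by 2.66 with air and 3.60 without, and had 5030.0 and 4599 in aerobic and 2690.5 and 2491 in anaerobic late SP, below the fold of 2 (log2 fold change 0.89, SE 0.21, adjusted p = 0.0023).

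HSP104 had 319 and 118 in exponential phase, 192 and 378 in late exponential phase, 887 and 803 at the diauxic shift, 565 and 446 in the post-diauxic phase, 596 and 533 in early SP and 2016 and 1802 in late SP in aerobic cultures. In anaerobic cultures its signals were 145 and 156 in exponential phase, 275 and 208 in end exponential phase, 1601 and 1679.7 in early SP and 1693 and 2017 in late SP. Anaerobic signals in early SP were close to those in late SP, unlike the aerobic ones. In late SP the regimes differed by 0.04 with a 95% confidence interval of -0.74 to 0.82. The small Hsps had late SP differences of 0.32 (interval -0.71 to 1.35) for HSP26 and 0.53 (interval -0.40 to 1.47) for HSP42. HSP30 had -0.98 in late SP, just under the fold of 2. It was called lower by quantile normalization (-1.20, adjusted p = 0.0040) and by scaling to housekeeping genes (-1.08, adjusted p = 0.0055).

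HSP31 changed its order with oxygen over the course. Aerobic cultures had 1699.8 and 1632 in exponential phase, 1628 and 1184 in late exponential phase, 1315 and 1365 at the diauxic shift, 714 and 778 in the post-diauxic phase, 656 and 645 in early SP and 689.9 and 661 in late SP. Anaerobic cultures had 797 and 631 in exponential phase, 789.6 and 756 in end exponential phase, 1350.0 and 1006 in early SP and 1759 and 1287 in late SP. Aerobic signals were the higher in exponential phase and the lower in both SP samples (log2 fold change -1.16, SE 0.20, adjusted p = 0.00023 in late SP). From exponential phase to late SP it fell by 1.30 with air and rose by 1.09 without on the log2 scale, and the difference of these changes was -2.39 (adjusted p = 1.6e-05). Without culture 1 of anaerobic late SP, the late SP difference was -0.93 and the anaerobic rise 0.86, and that rise was 0.92 without culture 2 of the anaerobic exponential samples and 0.94 by quantile normalization.

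The mitochondrial chaperones had the smallest median span of any class. HSP60 and HSP10, which form the chaperonin of the matrix, had group means that spanned 2.22-fold and 2.5-fold, with late SP differences of 0.33 and 0.17, neither of them called. HSP60 had 5438 and 4749.9 in aerobic and 4192 and 3917 in anaerobic late SP, against 3585 and 2829 in aerobic and 2373 and 2211 in anaerobic exponential phase. SSC1, the matrix Hsp70, and its J-protein MDJ1 rose between exponential phase and late SP by 1.54 and 2.04 with air and by 1.5 and 1.61 without. HSP78, the matrix relative of Hsp104, had 417 and 168 in aerobic and 126 and 136 in anaerobic exponential phase, and 1691 and 1181 in aerobic and 1535 and 1814 in anaerobic late SP. It was lower in aerobic early SP and had -0.24 in late SP, which was not called. At the diauxic shift HSP78 and MDJ1 rose by 1.21 and 1.09, but HSP78 had 0.93 (adjusted p = 0.078) without culture 1 of late exponential phase and 1.09 (adjusted p = 0.055) without culture 1 of the shift. MDJ1 had 0.94 without culture 2 of late exponential phase and 1.00 without culture 1 of the shift.

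MGE1 (YOR232W), the exchange factor of Ssc1, was the 1 mitochondrial member called in late SP. Its aerobic signals were 284 and 252 in exponential phase, 244 and 276 in late exponential phase, 178 and 246 at the diauxic shift, 262 and 259.9 in the post-diauxic phase, 189 and 201 in early SP and 67.2 and 123 in late SP. Its anaerobic signals were 165 and 187 in exponential phase, 203 and 235 in end exponential phase, 211 and 231 in early SP and 214 and 226 in late SP. Aerobic late SP was the lowest point (log2 fold change -1.27, SE 0.23, adjusted p = 0.00036 over anaerobic late SP). Its cultures differed there, and without culture 1 the late SP difference was -0.84 and the change from early SP -0.66, both under the fold of 2. With only the arrays compared, the adjusted p values of these changes were 0.052 and 0.081, and the change from early SP was -0.92 by quantile normalization and -0.96 by scaling to housekeeping genes. CPR3, the matrix cyclophilin, had 1053 and 1186 in aerobic and 1652 and 1729 in anaerobic late SP, below the fold of 2 (log2 fold change -0.60, SE 0.15, adjusted p = 0.0037).

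**Figure D5:**
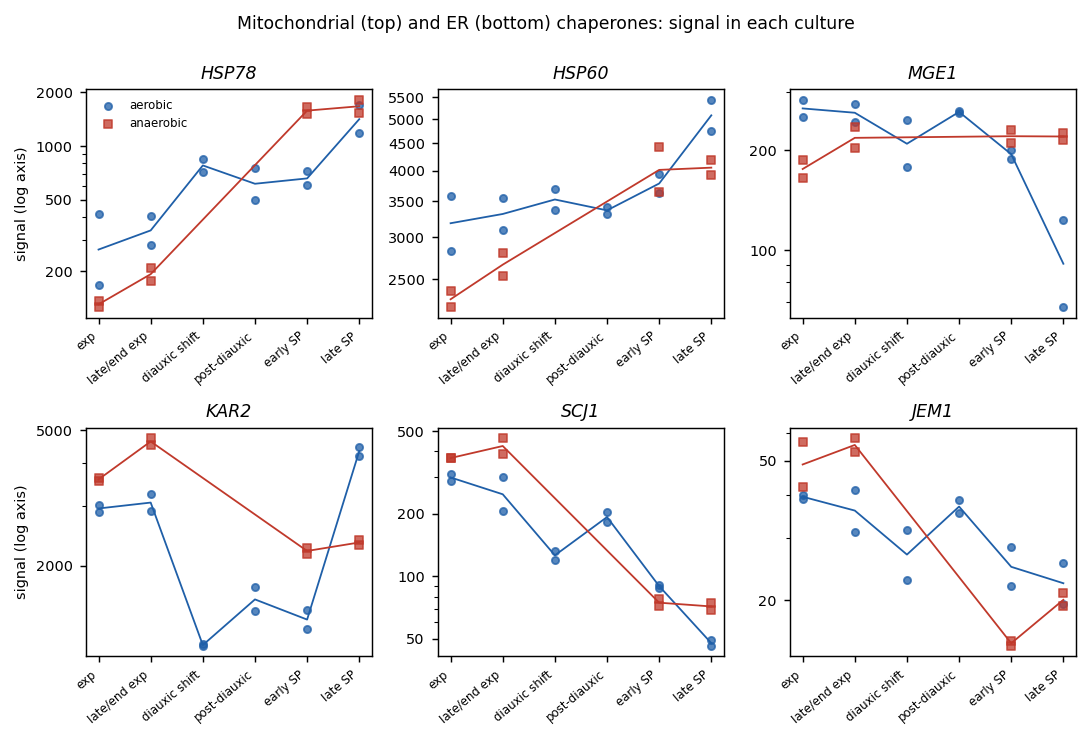
Signal in each culture (points, log axis, a different range in each panel) and group mean of log2 signals (lines) for 3 mitochondrial (top) and 3 ER (bottom) chaperones, with aerobic cultures as blue circles and anaerobic cultures as red squares over the sampling points. MGE1 was lowest in aerobic late SP, while KAR2 had 4468 and 4212 there against 2377 and 2304 in anaerobic late SP.

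At glucose exhaustion 4 of 4 ER chaperones were called lower in anaerobic cultures, as were 23.8% of all probe sets. In aerobic cultures 1 of 4, KAR2, was called lower, as were 12.7% of all probe sets. All 4 lay below 0 in aerobic cultures too, from -1.39 to -0.42. SCJ1 (-0.98) and LHS1 (-0.79) were under the fold of 2 there, and were called by quantile normalization (-1.33 and -1.12). The difference between the regimes at this step was not tested. JEM1 was under the fold of 2 in the anaerobic step with a floor of 30 (-0.89). KAR2 (YJL034W), the Hsp70 of the ER known as BiP in animals, had 3017 and 2874 in exponential phase, 2886 and 3253 in late exponential phase, 1164 and 1176 at the diauxic shift, 1728 and 1468 in the post-diauxic phase, 1486 and 1299.5 in early SP and 4468 and 4212 in late SP in aerobic cultures. It had 3621 and 3546 in exponential phase, 4737 and 4528 in end exponential phase, 2256 and 2164 in early SP and 2377 and 2304 in late SP in anaerobic cultures. It fell at this step by 1.39 with air and 1.07 without on the log2 scale, and rose between early and late SP in aerobic cultures (log2 fold change 1.64, SE 0.14, adjusted p = 1.2e-06). The anaerobic fall was 0.65 by quantile normalization and 0.98 by scaling to housekeeping genes. The late SP difference of 0.89 (adjusted p = 0.00012) was below the fold of 2, without overlap of the signals.

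Of the partners of Kar2, SCJ1 and LHS1 were called lower over the course in both regimes, and JEM1 in anaerobic cultures. SCJ1, an ER J-protein, had 46.3 and 49.1 in aerobic and 68.9 and 74.5 in anaerobic late SP, against 288 and 312 in aerobic and 373 and 370.4 in anaerobic exponential phase. LHS1, the ER exchange factor of the Hsp110 kind, had 46.1 and 38.4 in aerobic and 65.4 and 76.7 in anaerobic late SP, against 142 and 118 in aerobic and 186 and 177 in anaerobic exponential phase. Over this interval SCJ1 fell by 2.65 with air and 2.38 without, and LHS1 by 1.62 and 1.35 on the log2 scale. JEM1, an ER J-protein of low signal, fell by 1.29 without air, or by 0.70 with a floor of 30. With air it had -0.82, under the fold of 2, and -1.02 without culture 2 of aerobic late SP. By quantile normalization JEM1 was called lower with air too (-1.54, adjusted p = 1.7e-05). The difference between the regimes in this change was not called for JEM1. With the settings reported, none of the 4 ER members was called between the regimes at any stage. By quantile normalization LHS1 was called lower in aerobic late SP (-1.16, adjusted p = 0.00015). So was KAR2 at the aerobic diauxic shift over anaerobic early SP, just past the fold of 2 (adjusted p = 0.00015). Without culture 1 of aerobic late exponential phase, SCJ1 had -1.05 over anaerobic end exponential phase. Without culture 2 of the diauxic shift, JEM1 had 1.08 over anaerobic early SP.

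Over the whole course, 23 members were higher and 9 lower in aerobic late SP than in exponential phase (51.1% of all probe sets called, 25.9% higher and 25.3% lower). In anaerobic cultures 20 were higher and 9 lower (51.9% called, 23.1% higher and 28.8% lower). In these comparisons, which share no sample, 18 rose in both, which is 78.3% of the aerobic and 90% of the anaerobic list. The overlap over all tested probe sets was not counted here either. SSA1, SIS1, AHA1, STI1 and CUR1 were called higher with air only, and HSP31 and HSP10 without air only. For SSA1 and HSP10 the difference between the regimes was itself not called (0.47, adjusted p = 0.27, and -0.48, adjusted p = 0.23). SSA1 had 0.95, below the fold of 2, without culture 2 of the aerobic exponential samples. In anaerobic cultures SSA1 (1.27) and STI1 (1.14) were also called higher by quantile normalization, and SIS1 (1.02) by scaling to housekeeping genes.

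The difference between the regimes in that change was called for 11 members with the larger value in aerobic cultures and 4 with the smaller (33.3% of all probe sets called, 19.1% higher and 14.2% lower), and the median over members and over all probe sets was 0.15 in both. The share of members called, 35.7%, lay near that of all probe sets. The largest positive differences were SSA3 3.96, CUR1 3.67 and YDJ1 1.70, and HSP31 (-2.39) and MGE1 (-1.88) the largest negative ones. The split was 8 and 5 by quantile normalization and 10 and 6 by scaling to housekeeping genes, and 12 members were called without culture 1 of aerobic late SP and 18 without culture 2 of the aerobic exponential samples.

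Protein-folding genes outside the 44, taken from lists of other complexes, are given by counts over this interval. Of all tested probe sets 25.9% were higher and 25.3% lower with air, and 23.1% and 28.8% without. Of the 8 genes of the cytosolic chaperonin ring (CCT), which folds actin and tubulin, 5 were lower in aerobic late SP than in exponential phase and 7 in anaerobic late SP, and none was higher. Of 6 prefoldin genes, which deliver clients to that ring, 4 were lower in each regime, with PAC10 at -2.94 in aerobic and -2.90 in anaerobic cultures. Of 14 other cytosolic chaperone genes 2 were higher and 3 lower with air, and 1 and 4 without. Of 12 other ER folding genes 1 was higher and 5 were lower with air, and 0 and 5 without. Of 8 other mitochondrial ones 1 was higher and 2 were lower with air, and 2 and 0 without.

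In late SP, 1 of the 12 other ER genes was higher and 3 were lower in aerobic than in anaerobic cultures. Among those of the disulfide isomerase family, PDI1 (-0.17) and EPS1 (0.14) were not called. MPD1 was lower (-3.41, adjusted p = 2.6e-06) and MPD2 higher (1.99, adjusted p = 1.3e-07) in aerobic than in anaerobic cultures. EUG1 was lower in aerobic cultures in all 5 comparisons between the regimes, with log2 fold changes of -2.94 in early SP and -2.73 in late SP. Among 5 regulators, MSN2 (2.40, adjusted p = 1.8e-07) and IRE1, the sensor of unfolded protein in the ER (1.21, adjusted p = 0.0019), were higher in aerobic late SP, and the others were not called. HSF1 rose by 1.75 between exponential phase and late SP in aerobic cultures (adjusted p = 7.2e-07) and had 0.89 in anaerobic cultures (adjusted p = 0.00051), under the fold of 2. The difference between these changes was 0.85 (adjusted p = 0.017), also under it. MSN2 (-1.69) and HAC1 (-1.12) were lower in anaerobic late SP than in exponential phase.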

How the data were processed

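RNA of 20 samples, from duplicate cultures of each oxygen regime, was hybridised to Affymetrix YG-S98 arrays, 1 array a sample. The deposited values are linear signal intensities, 1 per probe set, which the authors scaled to a common target by the average signal of all features. There is no read depth and the number of arrays limits the precision. Median signals of the arrays were 44.1 to 69.4, and 1823 to 2822 features an array lay below 12. No columns were identical (highest correlation 0.993). Probe sets were named from the platform annotation, in which 6504 features had 1 gene and 328 several.

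Signals below 12 were set to 12 and log2 values taken. Of 6647 features of protein-coding genes, 580 with a highest signal under 20 were left out and 6067 tested. A limma fit (3.58.1, in R 4.3.3) of 10 group means over all arrays had 10 residual degrees of freedom and a prior of 4.73. Benjamini-Hochberg adjustment ran over the 6067 probe sets. On simulated data for aerobic over anaerobic late SP with the 6067 probe sets, the fit recovered 87% of changes of 1.5 (log2) and 100% of 2.5, with 5 false calls. The changes were placed in brighter probe sets only, with normal noise around a mean shared by all groups. Recovery in dim probe sets was not simulated.

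All members are accounted for by class, and those with the largest called change or a called difference between regimes are given in full. The members and gene lists were chosen with earlier results of these data known. The culture was not a term of the fit. Same-numbered samples of a regime come from the same culture, and their deviations from the group means had a median correlation of 0.0936 (anaerobic) and 0.12 (aerobic). Alternatives changed the floor, the filter, the scaling (quantile, housekeeping genes), the arrays fitted, the spread and the pairing, and left out each array. The difference in the change between early and late SP, and a block with crossed numbers, were added after seeing the data. DNA and protein sequences were not used here.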

Additional observations from a re-analysis of the deposited data

Results flagged for a closer look

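The log2 change between exponential phase and late SP differed between aerobic and anaerobic cultures, by a limma interaction contrast, for 15 members, or 35.7% of them, where 33.3% of all tested probe sets were called. The value was higher in aerobic cultures for the inducible Hsp70 gene SSA3 (3.96), for the sequestrase gene CUR1 (3.67), for the J-protein genes YDJ1 (1.70) and SIS1 (1.32) and for the Hsp90 gene HSC82 (1.00). The co-chaperones AHA1 (1.66), HCH1 (1.39) and STI1 (1.30), the stress proteins HSP12 (1.31) and HSP32/HSP33/SNO4 (1.69) and the ER Hsp70 KAR2 (1.17) were on the same side. It was lower in aerobic cultures for HSP31 (-2.39), MGE1 (-1.88), SSA4 (-1.34) and HSP78 (-1.26). Some of these calls ended under other settings. HSP12 had 0.56 (adjusted p = 0.10), STI1 0.91 and HSC82 0.68 by quantile normalization, and HSC82 0.88 by scaling to housekeeping genes. HSP78 was not called with a floor of 1, a floor of 30, no filter or only the arrays compared (adjusted p = 0.061 to 0.12), nor SSA4 with only the arrays compared (adjusted p = 0.056). SSA4 had -0.81 without culture 1 of the aerobic exponential samples, and missed the adjusted p without culture 2 of anaerobic exponential phase, culture 1 of anaerobic late SP or culture 1 of aerobic late SP (adjusted p = 0.070, 0.061 and 0.079). HSC82 had 0.91 to 0.99 without any 1 of 4 arrays, culture 1 of aerobic exponential phase, culture 1 of aerobic late SP, culture 1 of anaerobic exponential phase and culture 2 of anaerobic late SP. Of the 8 arrays compared, HSP78 kept its call only without culture 2 of the aerobic exponential samples, and it had -0.60 (adjusted p = 0.23) without culture 1 of the aerobic exponential samples.

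The change between early and late SP, a contrast chosen after its values had been seen, differed between the regimes for 22 members, where 19.3% of all tested probe sets were called. In Hsp70 and its partners the values were SSA3 3.57, SIS1 3.22, YDJ1 2.68, APJ1 2.47, SSA2 2.06, SSE2 1.78 and FES1 1.77 on the side of a higher value in aerobic cultures, and SSB1/SSB2 -1.24 and ZUO1 -1.56 on the other. HSP82 had 2.06, and its co-chaperones AHA1 2.39, STI1 2.39, HCH1 2.10 and CPR6 1.85. Among aggregate-handling genes the values were CUR1 4.38, HSP42 2.39, BTN2 1.87 and HSP104 1.59. In the organelles KAR2 had 1.56, MDJ1 1.13, MGE1 -1.09 and CPR3 -1.01. HSP104 was not called without any 1 of the 8 arrays (1.46 to 1.71, adjusted p = 0.062 to 0.12), nor with a floor of 1, a floor of 30 or no filter (adjusted p = 0.052, 0.060 and 0.064). HSP42 had 2.27 (adjusted p = 0.060) without culture 1 of aerobic late SP, and MDJ1 0.99 without culture 1 of anaerobic early SP. SSB1/SSB2 and MGE1 were each not called without any 1 of 6 arrays, with the smallest size without culture 1 of aerobic late SP (-0.76, adjusted p = 0.13, and -0.66, adjusted p = 0.090). With only the arrays compared, their adjusted p values were 0.070 and 0.080. CPR3 had -0.97 without culture 2 of anaerobic late SP, -0.90 without culture 2 of aerobic early SP and -0.92 without culture 1 of aerobic late SP, and -0.99 by scaling to housekeeping genes. With 2 cultures a group, a search for single samples far from the rest of their group was not possible.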

How the results depend on the processing

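No called member changed direction under any alternative. In exponential phase, 2 members were called between the regimes after scaling to housekeeping genes and 0 with only the arrays compared, against 1 as reported. In late or end exponential phase, 0 were called with a floor of 30 and 0 with only the arrays compared, against 1. Without 1 array, the calls between regimes numbered 1 to 5 in exponential phase, 0 to 2 in late or end exponential phase, 4 to 7 after glucose exhaustion, 14 to 17 in early SP and 9 to 15 in late SP. Within aerobic cultures they numbered 0 to 1 at late exponential phase, 18 to 23 at the diauxic shift, 6 to 8 in the post-diauxic phase, 7 to 9 in early SP, 22 to 26 between early and late SP and 30 to 33 over the course. Within anaerobic cultures they numbered 0 to 0 at end exponential phase, 28 to 30 in early SP, 0 to 0 between early and late SP and 28 to 31 over the course. The differences between regimes gave 12 to 18 over the course and 17 to 22 between early and late SP. Leaving out 1 array in turn ended a member's call in 83 cases and kept it in 957. Of 223 called differences, 15 were lost by quantile normalization, 12 with only the arrays compared, 7 by scaling to housekeeping genes, 7 with a floor of 30, 3 with no filter and 2 with a floor of 1. Calls were also gained, 22 by quantile normalization, 13 by scaling to housekeeping genes, 5 with only the arrays compared and 1 with a floor of 30. Leaving out 1 array added calls too. The causes of these changes were not tested.

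The replicate block ended no call and added 1. This was HSP42 at the aerobic diauxic shift over anaerobic early SP (-1.05, adjusted p = 0.046, against 0.065 without the block). That made 6 calls against 5 in this comparison. Between regimes, however, the block joined aerobic and anaerobic cultures that share only a number. Culture as a random block (consensus correlation -0.00306) and a trend of the spread with the signal ended and added none. With the block, 22 members were called in the difference between early and late SP, as without it. With numbers crossed at aerobic late exponential phase, counts were 16 for the difference over the course and 24 for that between early and late SP. A limit of these data is that 2 cultures a group leave calls open to 1 array, also for changes as large as that of HSP42 between early and late SP (difference 2.39), and that weak signals near the floor of 12 have compressed changes.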
